A study of Mus musculus with 6 samples.

Results

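Genes for the proteins of the mitochondrial ribosome were followed in mouse colonic organoids. The rows were chosen by symbol alone, Mrpl or Mrps with a number and at most 1 letter, and this gave 77 genes of 25067 rows, 48 named for the large subunit (Mrpl) and 29 for the small subunit (Mrps). The organoids came from the colon of C57BL/6 mice labelled 8 weeks old, and in all 6 libraries the genotype was Prkci f/f Prkcz f/f with Villin-CreERT2, so that every library carried floxed alleles of both atypical protein kinase C genes and a recombinase driven by the epithelial Villin promoter that 4-OH-tamoxifen (4-OHT) switches on. Vehicle organoids (3 libraries, labelled wild type) received ethanol and 4-OHT organoids (3 libraries, labelled as the double knockout) received the drug at passage, and RNA was taken after 3 days. Since no 4-OHT library without floxed alleles or without the recombinase was analysed here, the drug and the deletion cannot be told apart. The labels do not say whether the numbered libraries of a group came from different mice or cultures, so p-values measure the spread between these libraries, which may be technical.

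Mitochondria keep their own ribosome, which translates the few messages of mitochondrial DNA, all of them for subunits of the respiratory chain and ATP synthase. Its RNAs are made inside the organelle, whereas every one of its proteins is encoded in the nucleus, made in the cytosol and imported. Part of these proteins descend from bacterial ribosomal proteins and part were acquired later, and the colonic crypt is an epithelium in which mitochondrial content differs between dividing and differentiated cells.

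The libraries held 15804709 to 26957612 reads, recovered from the deposited normalized counts, and between 51053 and 83237 of them fell on the 77 genes. The Prkcz values were 880, 904 and 954 normalized counts in vehicle and 287, 265 and 290 after 4-OHT, and fell by 69.1% (log2 fold change -1.70 ± 0.08, SE, limma adjusted p = 3.2e-12). Prkci stood at 3603, 3526 and 3430 in vehicle and at 2869, 3105 and 3089 after 4-OHT, and fell by 14.2% (-0.22 ± 0.05, adjusted p = 0.00081). Which exons are floxed is not given in the sources used here, and reads on single exons were not analysed. Across all 13210 genes with a mean of at least 10 normalized counts, limma called 2997 higher (22.7%) and 2768 lower (21.0%) after 4-OHT, together 43.6% of the genes.

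Before the values, the sequences that precede 6 of the genes described here are shown, because promoters are where regulators of mitochondrial biogenesis are known to act. They are 4 members that fell and 2 that rose, among them the largest fall and the largest rise, picked after their values and matches were seen. They come from the RefSeq promoter table of build GRCm38.p6, an older build than the GRCm39 named for the deposited values, and each is the longest run, within the 250 bases before the RefSeq start, that lies in no exon of the GENCODE vM21 basic annotation. Capitals mark matches to 4 fixed words, searched on both strands: CATGCGC for NRF1 (nuclear respiratory factor), CCGGAAG for ETS factors such as GABP, AAGATGG for YY1 and the palindrome CACGTG for the E-box bound by Myc. An ETS match that ends in AAG can share those 3 letters with a YY1 match.
Mrps27, lower after 4-OHT, chr13:99344706-99344785, plus strand: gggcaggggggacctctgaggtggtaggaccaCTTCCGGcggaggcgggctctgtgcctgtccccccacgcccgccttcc
Mrps18b, lower, chr17:35916441-35916565, minus strand: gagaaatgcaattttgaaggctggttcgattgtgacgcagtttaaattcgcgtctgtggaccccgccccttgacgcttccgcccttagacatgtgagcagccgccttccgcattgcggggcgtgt
Mrpl58, lower, chr11:115403502-115403751, plus strand: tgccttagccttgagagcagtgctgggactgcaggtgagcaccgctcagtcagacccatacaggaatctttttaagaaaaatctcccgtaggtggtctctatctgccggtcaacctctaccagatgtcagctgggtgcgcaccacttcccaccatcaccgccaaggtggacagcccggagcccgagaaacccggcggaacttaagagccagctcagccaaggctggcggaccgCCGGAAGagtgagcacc
Mrpl2, lower, chr17:46646023-46646220, plus strand: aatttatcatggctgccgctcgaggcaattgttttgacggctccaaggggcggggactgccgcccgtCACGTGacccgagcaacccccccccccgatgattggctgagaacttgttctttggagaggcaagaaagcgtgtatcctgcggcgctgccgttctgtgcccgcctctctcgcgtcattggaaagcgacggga
Mrps6, higher, chr16:92058086-92058269, plus strand: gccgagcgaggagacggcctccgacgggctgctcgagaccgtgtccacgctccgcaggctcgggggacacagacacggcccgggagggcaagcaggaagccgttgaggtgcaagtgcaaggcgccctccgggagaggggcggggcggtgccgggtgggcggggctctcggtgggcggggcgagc
Mrpl20, higher, chr4:155802628-155802877, plus strand: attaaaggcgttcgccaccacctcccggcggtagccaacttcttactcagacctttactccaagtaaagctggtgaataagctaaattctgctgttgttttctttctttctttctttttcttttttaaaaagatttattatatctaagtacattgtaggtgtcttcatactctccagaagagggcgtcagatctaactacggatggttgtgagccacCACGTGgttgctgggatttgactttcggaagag

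An ETS word stood at bases -48 to -42 before the start of Mrps27 and at -17 to -11 before that of Mrpl58. An E-box word stood at -131 to -126 before Mrpl2, which was lower, and at -33 to -28 before Mrpl20, which was higher. The stretches printed for Mrps18b and Mrps6 held none of these letters, but the full window of Mrps18b, described next, held an NRF1 and an ETS word. Over the whole window of 300 bases (250 before to 50 after the start), 68 of the 77 members could be matched, beside 27025 genes in the table. The ETS word was found in 25 of the 68 members (36.8%) against 9.93% of all genes, the YY1 word in 13 (19.1%) against 7.28% and the NRF1 word in 8 (11.8%) against 4.41%. The E-box word was found in 5 members (7.35%), beside 8.09% of all genes. All genes are here the 27025 with a promoter window, not limited to the 13210 tested, whereas every member was tested. A comparison with tested genes alone was not made. Of the ETS matches, 2 belonged to the 5 matched members that were higher after 4-OHT, 3 to the 10 that were lower and 20 to the 53 not called. These are matches of letters and say nothing about binding in these organoids.

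All 77 members passed the filter on low values, with means between 55.5 and 2600 normalized counts. After 4-OHT, 5 members were higher and 14 lower at an adjusted p under 0.05, which is 24.7% of the members against 43.6% of all tested genes and against 46.6% of the 9225 genes within the members' range of levels. No member passed both the threshold and a change of 0.5 on the log2 scale, a limit that 14.2% of all tested genes passed. The median log2 fold change of the members was -0.03, where that of all tested genes was -0.01, and the median size of the change without its sign was 0.10 against 0.21. Their SEs had a median of 0.07, where the median SE over all tested genes was 0.08. The 95% confidence interval lay inside ±0.5 for 73 of the 77 members (94.8%), which leaves Mrps27, Mrps18b, Mrps18c and Mrps6, and for 58.2% of all tested genes. It lay inside ±0.25 for 38 members (49.4%) and for 21.9% of all tested genes. The 3 values of the groups were apart, with no overlap, in 29 of the 77 members, 7 that were higher and 22 that were lower. Of all tested genes, 26.8% were apart and higher and 25.3% apart and lower, together 52.1%.

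**Figure D1:**
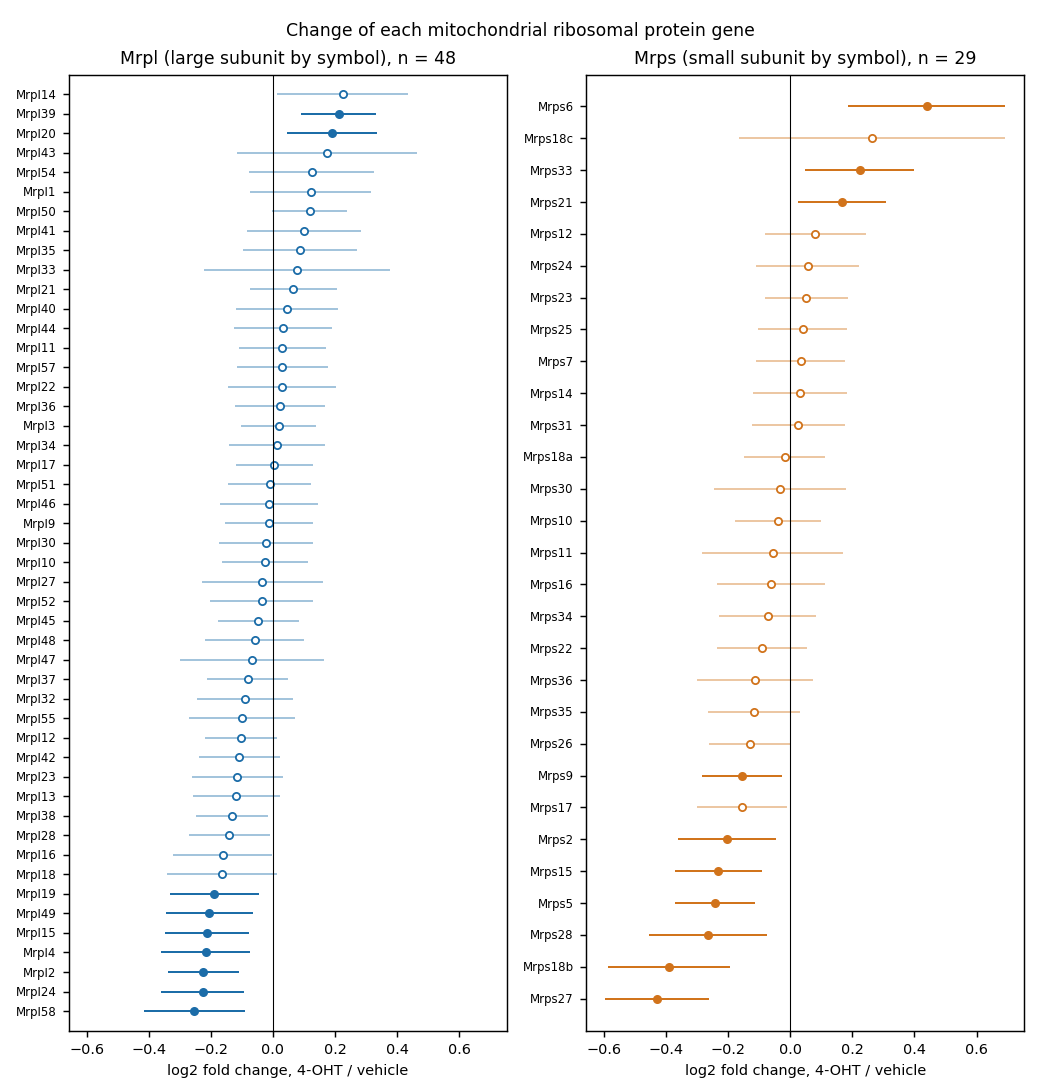
Log2 fold change of each member, 4-OHT over vehicle, with its 95% confidence interval from limma (x axis), for the 48 Mrpl genes (left) and the 29 Mrps genes (right), ordered by the change. Filled points passed an adjusted p of 0.05. The Mrpl genes lie between -0.25 and 0.22 and the Mrps genes between -0.43 and 0.44.

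The largest fall was that of Mrps27, a small subunit protein with pentatricopeptide repeats, the fold of many RNA-binding proteins of the organelle. It measured 581, 572 and 573 normalized counts in vehicle and 426, 396 and 462 after 4-OHT (log2 fold change -0.43 ± 0.08, SE, limma adjusted p = 0.00016). Every 4-OHT library lay below every vehicle library, and the mean fell by 25.7%. Mrps18b, which encodes a further small subunit protein, measured 358, 388 and 349 in vehicle and 299, 273 and 264 after 4-OHT (-0.39 ± 0.09, adjusted p = 0.0019). The groups were again apart, and the level fell by 23.7%.

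The other small subunit genes that fell did so by less. Mrps28 measured 369, 370 and 381 in vehicle and 302, 339 and 294 after 4-OHT (-0.26 ± 0.09, adjusted p = 0.022). Mrps5, whose bacterial counterpart lies where the messenger RNA enters the ribosome, measured 1245, 1302 and 1437 in vehicle and 1120, 1110 and 1133 after 4-OHT (-0.24 ± 0.06, adjusted p = 0.0028). Here the vehicle libraries were spread over a wider range than the 4-OHT libraries. Mrps15 measured 861, 853 and 947 in vehicle and 727, 783 and 755 after 4-OHT (-0.23 ± 0.07, adjusted p = 0.0073), with the groups apart. Mrps2 and Mrps9, both with bacterial counterparts, also passed the threshold, at -0.20 ± 0.07 (adjusted p = 0.032) and -0.15 ± 0.06 (adjusted p = 0.044).

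Of the large subunit genes, Mrpl58 fell furthest. It encodes a peptidyl-tRNA hydrolase, an enzyme that frees stalled ribosomes and is also built into the large subunit, and measured 631, 598 and 643 in vehicle and 501, 572 and 499 after 4-OHT (-0.25 ± 0.08, adjusted p = 0.010). Replicate 2 was the highest of the 4-OHT libraries and still lay below the lowest vehicle library. Mrpl24, whose protein lies at the tunnel through which the new chain leaves the ribosome, measured 1374, 1304 and 1353 in vehicle and 1082, 1263 and 1110 after 4-OHT (-0.23 ± 0.06, adjusted p = 0.0061). Mrpl2, whose bacterial counterpart lies near the peptidyl transferase centre, measured 1314, 1295 and 1349 in vehicle and 1126, 1136 and 1126 after 4-OHT (-0.22 ± 0.05, adjusted p = 0.0022). Mrpl4, Mrpl15, Mrpl49 and Mrpl19 completed the 7 large subunit genes that fell, at -0.22, -0.21, -0.21 and -0.19.

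Among the 5 genes that rose, Mrps6 stood first. It measured 184, 157 and 212 in vehicle and 263, 251 and 232 after 4-OHT (0.44 ± 0.12, adjusted p = 0.0057), 35.6% higher. The groups were apart, but the gap between the highest vehicle and the lowest 4-OHT library was smaller than the spread within vehicle. In GENCODE vM21, Mrps6 shares 305 exon bases on the same strand with Gm49711, a gene not analysed here, and 159 with Slc5a3, a myo-inositol transporter gene, whose change was -0.08 ± 0.08 and was not called. Reads in these stretches cannot be assigned to a single gene even with strand. Mrpl39 rose more evenly, from 1010, 971 and 1025 in vehicle to 1154, 1157 and 1171 after 4-OHT (0.21 ± 0.06, adjusted p = 0.0046). Mrps33 measured 348, 387 and 372 in vehicle and 423, 432 and 437 after 4-OHT (0.22 ± 0.08, adjusted p = 0.033). Mrpl20 measured 813, 837 and 956 in vehicle and 984, 1024 and 958 after 4-OHT (0.19 ± 0.07, adjusted p = 0.029), with its groups barely apart. Mrps21 measured 771, 811 and 889 in vehicle and 954, 892 and 923 after 4-OHT (0.17 ± 0.07, adjusted p = 0.048), which was the member closest to the threshold on the inside. On the outside the closest was Mrpl38, at -0.13 ± 0.05 with an adjusted p of 0.053.

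**Figure D2:**
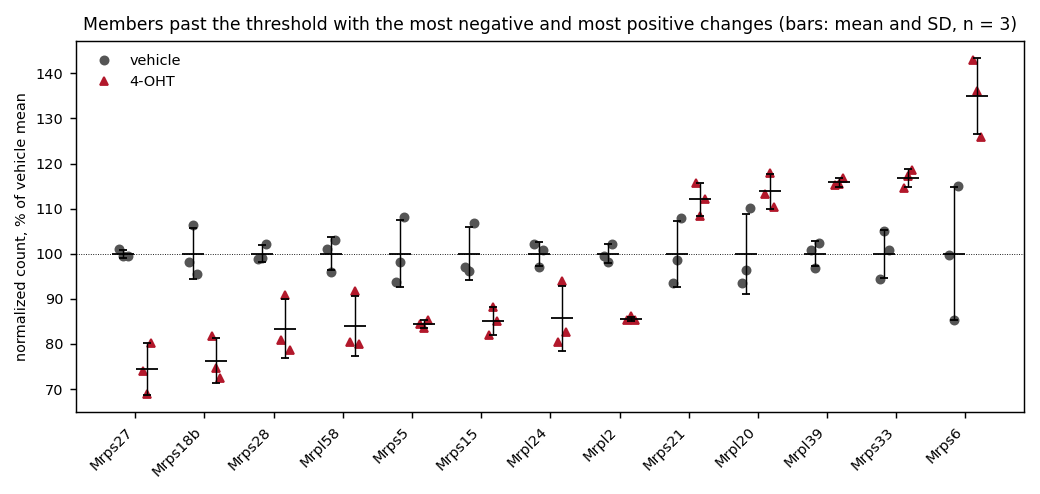
Normalized count of each library as a percentage of the gene's vehicle mean (y axis, which does not start at 0) for the 8 members with the largest falls and the 5 with rises past the threshold. Grey circles are the 3 vehicle libraries, red triangles the 3 4-OHT libraries, and bars the mean and SD. Mrps27 and Mrps18b lie lowest and Mrps6 highest after 4-OHT, and in all 13 genes the groups are apart.

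Of the 19 members past the threshold, 8 passed it in each of 16 other fits, which changed the pseudocount, the filter, the scaling or the tool, added the replicate number or left out a library. These were Mrps27, Mrps18b, Mrps5, Mrps15, Mrpl24, Mrpl2, Mrpl58 and Mrps6. Mrps21 passed in 5 of the 16, Mrps9 in 9 and Mrps33 in 10, and all 19 kept their sign in the 16 fits. Of the 58 members not called, 15 passed the threshold in at least 1 of these fits. On the recovered reads, edgeR called 43.8% of all tested genes and 19 members, and DESeq2 called 39.4% and 15 members.

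The 3 Mrps18 genes are paralogs related to a single bacterial protein. Mrps18a, whose product is found in the large subunit despite its symbol, measured 869, 900 and 947 in vehicle and 905, 891 and 886 after 4-OHT (-0.02, 95% confidence interval -0.14 to 0.11). Mrps18b fell, as given above. Mrps18c was the scarcest member, with 43 to 69 reads in a library, and measured 52.2, 46.1 and 52.1 in vehicle and 71.3, 60.1 and 51.2 after 4-OHT. Its change of 0.26 had an interval from -0.16 to 0.69, and at this depth neither a rise nor a small fall could be told from the spread.

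Other large subunit members have known sites on the ribosome. Mrpl12 forms the stalk that recruits translation factors, and it measured 2566, 2581 and 2942 in vehicle and 2459, 2532 and 2518 after 4-OHT (-0.10, interval -0.22 to 0.01, adjusted p = 0.13). All 3 4-OHT libraries lay below the vehicle libraries, but the highest vehicle library, replicate 3, stood further from the other vehicle libraries than those did from 4-OHT. Mrpl10 and Mrpl11, at the base of this stalk, changed by -0.03 and 0.03, and Mrpl1, of the L1 stalk through which spent transfer RNAs leave, by 0.12, none of them called. At the exit tunnel, Mrpl24 fell as given above, whereas Mrpl22 and Mrpl23 stood at 0.03 and -0.12 and Mrpl45, which holds the ribosome at the inner membrane, at -0.05, and none of these 3 was called. In the central protuberance, which contacts the head of the small subunit, Mrpl38, Mrpl40, Mrpl46, Mrpl48 and Mrpl18 ranged from -0.16 to 0.05, with none called. Mrpl44, a subunit with an RNase III-like fold, stood at 0.03.

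Among small subunit landmarks, Mrps12 of the decoding centre measured 552, 599 and 638 in vehicle and 585, 649 and 659 after 4-OHT (0.08, interval -0.08 to 0.24). Mrps7 of the head measured 877, 884 and 1018 in vehicle and 970, 961 and 908 after 4-OHT (0.03, interval -0.11 to 0.17). In both genes the groups overlapped. Mrps30 carries a small subunit symbol but is found in the large subunit, and changed by -0.03 (interval -0.24 to 0.18). Mrps36 is now known as a component of the 2-oxoglutarate dehydrogenase complex rather than of the ribosome, and changed by -0.11 (interval -0.30 to 0.07).

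Levels can be compared between genes only per length, and per kilobase of annotated exon the members ranged widely. Mrpl52 was highest, at 2165 normalized counts per kilobase, followed by Mrpl12 at 1975 and, as the highest of the small subunit, Mrps21 at 1775. Mrps18c was lowest, at 59.1, although each ribosome holds its proteins in fixed numbers. Exon lengths were those of GENCODE vM21 and take in every annotated exon of a gene, so that genes with long alternative ends appear lower on this scale.

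The large and small subunits were then set side by side. Of the 48 Mrpl genes, 2 were higher and 7 lower (18.8% called), with a median log2 fold change of -0.02. Of the 29 Mrps genes, 3 were higher and 7 lower (34.5% called), with a median of -0.06. Both shares lay below the 43.6% of all tested genes, and the medians differed by 0.03. Assigned by structure, with Mrps30 and Mrps18a moved to the large subunit and Mrps36 left out, 9 of 50 large (18.0%) and 10 of 26 small subunit genes (38.5%) were called, and the difference of the medians was again 0.03. No test was made of this difference, since genes are not replicates.

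Summed over the Mrpl genes, the libraries held 40419, 40447 and 44370 normalized counts in vehicle and 40029, 40978 and 40007 after 4-OHT. The means were 41745 ± 2273 (SD, n = 3) and 40338 ± 554, and the groups overlapped. Summed over the Mrps genes, the values were 18772, 18599 and 20071 in vehicle and 18348, 18458 and 18109 after 4-OHT. These groups were apart, though by less than the SD of the vehicle libraries, with means of 19147 ± 804 and 18305 ± 179, and the mean fell by 4.40%. The ratio of the large to the small subunit sum was 2.15, 2.17 and 2.21 in vehicle and 2.18, 2.22 and 2.21 after 4-OHT, and the groups overlapped (2.18 ± 0.03 against 2.20 ± 0.02).

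Vehicle replicate 3 stood above the other vehicle libraries in this gene family. It held the highest vehicle value in 60 of the 77 members, and the median deviation of its members from the vehicle mean was 0.09 on the log2 scale, where the other vehicle libraries stood at -0.03 and -0.04 and the median over all genes at 0.00. The cytosolic ribosomal protein genes deviated by 0.08 in the same library, which also had the fewest reads of all. Without vehicle replicate 3, 6 members were higher and 10 lower (20.8% called). The same fit called 39.1% of all tested genes, and 53.7% of those calls were higher. The median change turned positive for the Mrpl genes (0.03), for the Mrps genes (0.01) and for all members (0.02). That of all tested genes was -0.003. Under the deposited size factors, the sign of the family's median change thus rested on 1 vehicle library. Among the called members, more were lower than higher without this library too. Without 4-OHT replicate 1, the median of all members was -0.008, where it was -0.03 with every library. The 8 members listed above passed the threshold without vehicle replicate 3 as well.

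**Figure D3:**
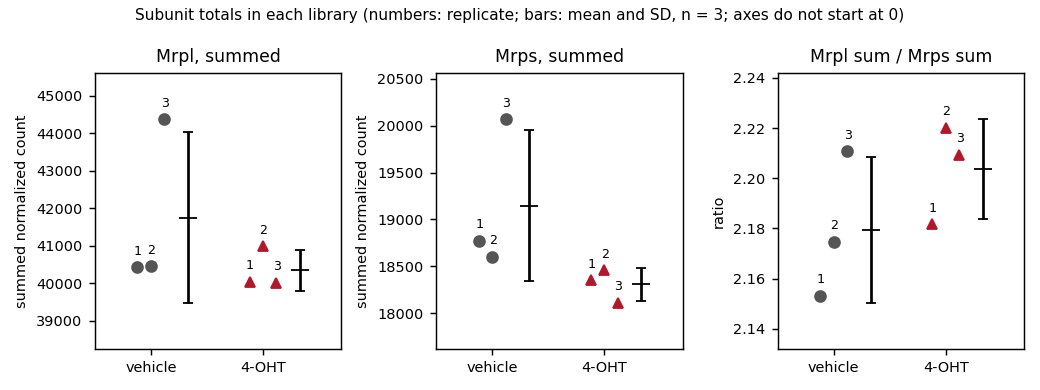
Summed normalized counts of the 48 Mrpl genes (left) and the 29 Mrps genes (middle) and their ratio (right) in each library, with axes that do not start at 0. Points are libraries with their replicate number, and bars the mean and SD of 3 libraries. Vehicle replicate 3 lies above all other libraries in both sums, and the ratio overlaps between the groups.

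Expressed as a share of all reads, the 77 genes took 0.311%, 0.309% and 0.337% in vehicle and 0.293%, 0.293% and 0.290% after 4-OHT, and the groups were apart. With the values scaled to total reads in place of the deposited size factors, 27 members (35.1%) were called, 1 higher (Mrps6) and 26 lower, beside 45.5% of all tested genes, and their median change became -0.11. The median of all genes moved to -0.08 under the same scaling, and the share of all calls that were higher from 52.0% to 36.9%. The members lay 0.03 below the median of all genes under both scalings. Dividing each library by 1 factor moves all genes nearly alike, so this distance could hardly change and its agreement shows nothing further. Under the deposited size factors, members minus all genes was 0.0189 without vehicle replicate 3 and -0.0025 without 4-OHT replicate 1.

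Members with a bacterial counterpart, the older core of the ribosome, were compared with the members acquired later, a division that the choice by symbol did not use and that leaves out Mrps36. Of the Mrps18 paralogs, Mrps18c was counted as the bacterial counterpart. Of 46 members with a counterpart, 3 were higher and 10 lower (28.3% called), with a median change of -0.04. Of 30 members without a counterpart, 2 were higher and 4 lower, with a median of -0.03. Of all tested genes 43.6% were called, 22.7% higher and 21.0% lower, so that the share of members lower in the first class (21.7%) was that of all genes. The largest falls, in Mrps27 and Mrps18b, belonged to the second group, and the largest rise, in Mrps6, to the first.

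Many nuclear genes for mitochondrial proteins start back to back with a neighbour on the other strand. In GENCODE vM21, 19 members had such a partner with the starts at most 1000 bases apart, and in 18 pairs both genes were tested. Of the 18 partners, 2 were higher and 7 lower, beside 43.6% of all tested genes called, and of the 18 members 5 were called. In 3 pairs both genes were called. Mrps27 and its partner Ptcd2, itself a mitochondrial pentatricopeptide repeat gene with its start 81 bases away, were both lower (-0.43 and -0.21). Mrps5 and Zfp661 were both lower as well (-0.24 and -0.38). Mrpl2 fell while Klc4, a kinesin light chain gene 207 bases away, rose from 2025, 2034 and 2269 to 2614, 2760 and 2523 normalized counts (0.32 ± 0.05, adjusted p = 8.1e-05).

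In other pairs the partner moved and the member did not pass the threshold. Ncapd2, a condensin subunit that packs mitotic chromosomes, starts 100 bases from Mrpl51 and fell from 3922, 3960 and 4010 to 2447, 2107 and 2224 (-0.81 ± 0.05, adjusted p = 3.8e-10), whereas Mrpl51 stood at -0.01. Ska3, of the kinetochore, fell by 0.60 on the log2 scale beside Mrpl57 at 0.03, and the DNA helicase gene Helq by 0.48 beside Mrps18c at 0.26. Sars2, the mitochondrial seryl-tRNA synthetase gene, fell by 0.36 on the log2 scale beside Mrps12 at 0.08. Pnpla7 was lower as well (-0.60) beside Mrpl41 at 0.10. In these pairs Mitd1, beside Mrpl30 at -0.02, was the partner that rose (0.33, adjusted p = 0.0048). Mrps18b showed the reverse, since it fell while its partner Ppp1r10 stood at 0.10 and was not called.

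**Figure D4:**
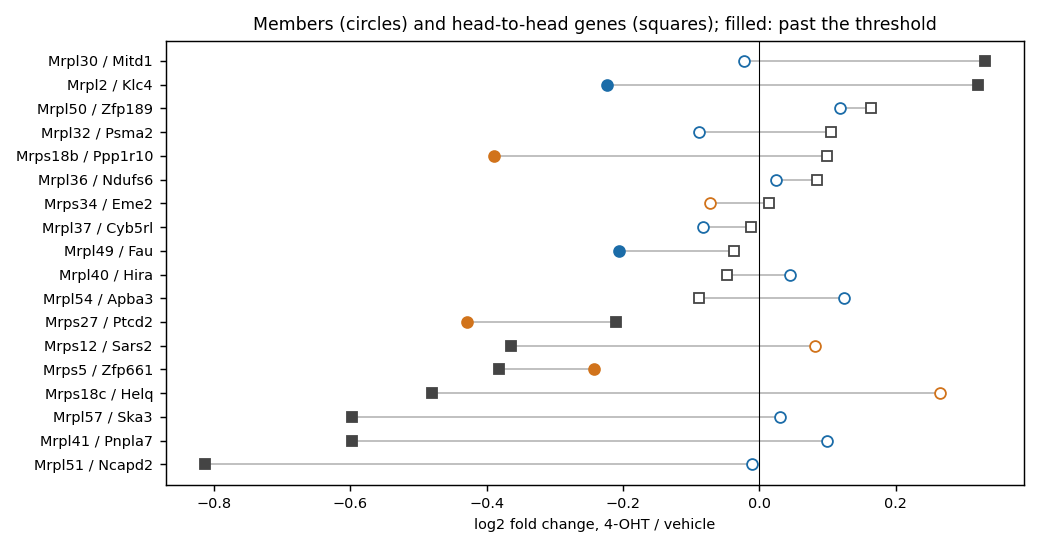
Log2 fold change, 4-OHT over vehicle (x axis), of 18 members (circles, blue for Mrpl and orange for Mrps) and of the gene that starts head-to-head with each (squares), joined by a line. Filled symbols passed an adjusted p of 0.05. The partners span -0.81 to 0.33 and the members -0.43 to 0.26, and both genes of a pair are filled in 3 pairs.

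Exons of some members overlap those of a neighbour, and whether the counting used strand is not given in the sources used here. Mrpl19 shares 1962 exon bases with Gcfc2 on the other strand, which was lower as well (-0.52, adjusted p = 0.0049), and Mrpl24 shares 594 bases with Rrnad1 (-0.16, not called). Mrps27 shares 417 bases with the transcript 6430562O15Rik, which had at most 13 reads in a library. Mrps18b shares 638 bases with the antisense gene Gm16279 (-0.49, not called). Without strand, reads in these stretches cannot be assigned to a single gene. The values of Mrpl19, Mrpl24, Mrps18b and Mrpl49, which shares 91 bases with Syvn1, carry this limit. So does Mrps6 for the same-strand overlaps given above. Members not called carry it too, among them Mrps25 (3533 bases with Nr2c2) and Mrpl48 (403 with Rab6a, which was higher). Mrpl43 shares 385 bases with Twnk, Mrpl13 330 with Mtbp and Mrps7 127 with Gga3, and each of these neighbours was lower. The processed copies Mrpl27-ps, Mrpl48-ps, Mrps36-ps1 and Mrps36-ps2 had at most 5 reads in a library, and Mrpl23-ps1 had 7.46 to 16.95 normalized counts (-0.12 ± 0.43, not called).

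Of 5 further subunits whose symbols do not follow the Mrpl or Mrps pattern, 2 were lower and 1 higher. Dap3, a GTP-binding small subunit protein, measured 1678, 1682 and 1746 in vehicle and 1485, 1544 and 1384 after 4-OHT (-0.21 ± 0.05, adjusted p = 0.0038). Ptcd3, a further pentatricopeptide protein of the small subunit, fell by 11.0% (-0.17 ± 0.06, adjusted p = 0.032). Aurkaip1 rose from 1328, 1322 and 1450 to 1561, 1563 and 1511 (0.18 ± 0.06, adjusted p = 0.013). Chchd1 and Gadd45gip1 were not called, at 0.04 and -0.70, the second with at most 41.2 normalized counts in a library.

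The factors that build and serve the ribosome were taken from lists, whose counts stand beside 43.6% of all tested genes called, 22.7% higher and 21.0% lower. Of 26 genes for assembly of the ribosome and modification of its RNA, 3 were higher and 6 lower (34.6% called), with a median of -0.14. They included Mettl17 (-0.31, adjusted p = 0.0047), Mterf3 (-0.29, adjusted p = 0.027) and, in the other direction, Mterf4 (0.31, adjusted p = 0.015). Of 15 tested translation factors and related genes, none was higher and 7 were lower (46.7% called), with a median of -0.18. They included the release factor Mtrf1 (-0.48, adjusted p = 0.012), the insertase Oxa1l (-0.33, adjusted p = 0.00026) and the messenger RNA stabilising factor Lrpprc (-0.30, adjusted p = 0.00056). Of 17 mitochondrial aminoacyl-tRNA synthetases, 1 was higher and 8 were lower (52.9% called), with a median of -0.24. Vars2 fell from 1236, 1231 and 1259 to 956, 915 and 848 (-0.46 ± 0.06, adjusted p = 4.1e-06), Mars2 fell by 0.39 on the log2 scale, and Lars2 was the gene that rose (0.37, adjusted p = 0.0024), with its groups overlapping. Of 11 genes for transcription and upkeep of mitochondrial DNA, 3 were lower and none higher (27.3% called), namely the helicase Twnk (-0.33), the RNA polymerase Polrmt (-0.20) and the packaging factor Tfam (-0.20). The call was lost in 7 of 17 other fits for Mterf3, in 6 for Polrmt and in 3 for Tfam. Without vehicle replicate 3, 2 assembly genes, 5 translation factors, 7 synthetases and 1 gene of mitochondrial DNA upkeep were lower. Scaled to total reads, the numbers were 12, 10, 12 and 5. Of all tested genes, 39.1% were called without vehicle replicate 3 and 45.5% under total reads. The calls that were higher made up 53.7% and 36.9% of these, against 52.0% in the main fit, so total reads moved all genes towards lower calls.

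The messages that these ribosomes translate come from mitochondrial DNA. Of 12 tested genes of mitochondrial DNA, ribosomal RNAs included, 4 were higher and none lower, with a median of 0.10. The share called was 33.3%, beside 43.6% of all tested genes. Among the 4 were mt-Nd4 (0.31, adjusted p = 1.2e-05), mt-Cytb (0.29, adjusted p = 0.00010) and mt-Co1 (0.15, adjusted p = 0.031). The call of mt-Co1 was lost in 9 of 17 other fits, among them the replicate block (adjusted p = 0.077), no filter on low values (0.072) and quantile normalization, where its change was 0. The ribosomal RNAs mt-Rnr1 and mt-Rnr2 stood at -0.01 and 0.05 and were not called. These mitochondrial genes differed widely in level. In vehicle the mean of mt-Co1 was 193781 normalized counts, whereas those of mt-Co2, mt-Co3 and mt-Atp6 were 192, 169 and 40.6. None of these low genes was called, yet they count in the median, and the reason for their low values was not tested. Of 81 tested nuclear genes for the respiratory chain and ATP synthase, 15 were higher and 7 lower (27.2% called), with a median of 0.04. The cytosolic ribosomal protein genes, which build the ribosome outside the organelle, showed 4 higher and 9 lower of 84 tested (15.5% called), with a median of -0.02. The counts in these groups depended on the scaling. With values scaled to total reads, 32 cytosolic ribosomal protein genes were lower and 2 higher, and with quantile normalization 44 were lower and 1 higher. The respiratory chain genes turned to 9 higher and 13 lower under total reads and stood at 12 and 11 under quantile normalization, where the mitochondrial genes stood at 2 and 2. Without vehicle replicate 3, 7 cytosolic ribosomal protein genes were higher and 4 lower. Of all tested genes, 45.5% were called under total reads, 43.1% under quantile normalization and 39.1% without vehicle replicate 3. The calls that were higher made up 36.9%, 50.2% and 53.7% of these.

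**Figure D5:**
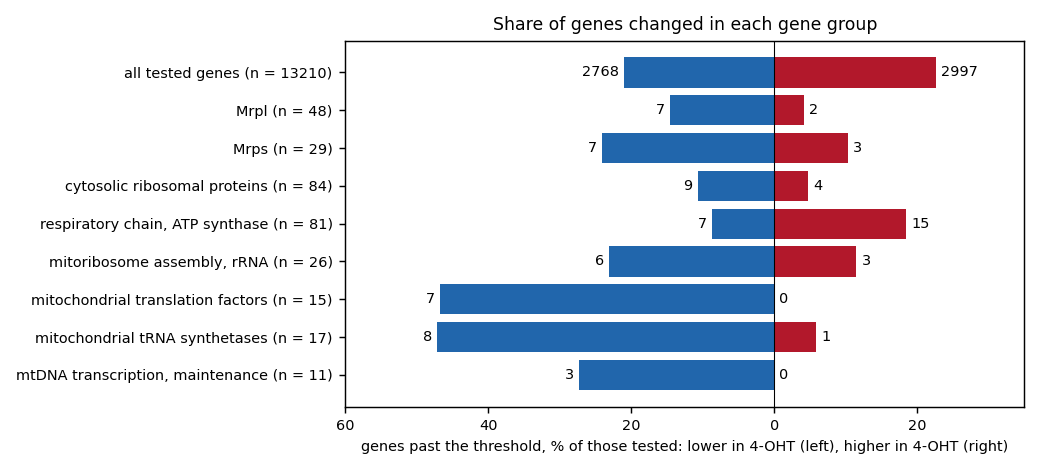
Share of tested genes in each group past an adjusted p of 0.05, in percent (x axis), lower after 4-OHT to the left (blue) and higher to the right (red), with the number of genes at each bar and the number tested in brackets. The Mrpl and Mrps genes have shorter bars on the right than all tested genes, and 7 of 15 translation factors and 8 of 17 synthetases lie to the left.

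Of 9 regulators known to act on nuclear genes for mitochondrial proteins, 2 were higher and 3 lower (55.6% called), beside 43.6% of all tested genes. The coactivator Ppargc1a fell from 112, 123 and 119 to 83.7, 63.2 and 64.9 normalized counts (-0.74 ± 0.16, adjusted p = 0.0010). The related Ppargc1b and Pprc1 fell by 0.70 and 0.40 on the log2 scale. Esrra, a nuclear receptor that works with these coactivators, rose from 2806, 2696 and 2827 to 3233, 3439 and 3262 (0.25 ± 0.05, adjusted p = 0.00018), and Yy1 rose by 0.14 (adjusted p = 0.037) with its groups overlapping. Nrf1, Gabpa and Myc were not called, at -0.07, -0.11 and 0.08.

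Proliferation genes moved in the same libraries, and all 10 of the listed genes were lower, with a median of -0.65. Of all tested genes, 21.0% were lower. Mki67, a marker of cycling cells, fell from 10996, 11500 and 11575 to 6140, 4737 and 6032 (-1.02 ± 0.07, adjusted p = 6.5e-10). In bulk RNA, fewer cells of a type and less RNA per cell cannot be told apart, and the part of the cell cycle in the members' values was not tested. Markers of colonic epithelium were present in every library, at 16480 to 17020 RPM (reads scaled to the total of each library) in vehicle and 20740 to 21900 RPM after 4-OHT over 12 genes. The 8 markers of small intestine and plasma cells came to 7.75 to 14.1 RPM in vehicle and to 9.76, 43.7 and 32.4 in 4-OHT replicates 1, 2 and 3. Lyz1 made up most of the vehicle sum, with 145, 263 and 178 normalized counts, and had 182, 290 and 275 after 4-OHT. Igha had 0 in every vehicle library and 1.03, 140 and 45.5 after 4-OHT. Defa24 went from 0.93, 4.26 and 3.63 to 4.13, 150 and 200. Fabp6, Defa21, Mptx2, Igkc and Jchain were likewise highest in 4-OHT replicates 2 and 3, and the source was not tested. The 5 smooth muscle markers came to at most 0.380 RPM in vehicle and to 0.415, 3.01 and 7.95 RPM after 4-OHT. Fibroblast markers (7 genes) reached 10.6 in 4-OHT replicate 3 and at most 3.58 in vehicle, immune markers (7 genes) lay between 6.80 and 11.3, and endothelial markers (4 genes) at 0.715 or less. With 4-OHT replicate 1 alone set against vehicle, a fit chosen after seeing these markers in which the single library is taken to vary like the vehicle libraries, 8 members (10.4%) were called, 1 higher and 7 lower, where the same fit called 29.2% of all tested genes. Mrps27 (-0.43) and Mrps6 (0.52) were among them, and Mrps18b (-0.29) was not.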

How the data were processed

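RNA from 6 organoid libraries, 3 per group, was sequenced, and groups were taken from the treatment labels. The authors deposited normalized counts, a signal in which the reads of a gene are divided by 1 size factor per library. STAR, DESeq2 and the build GRCm39 (mm39) are named in the submitters' processing notes; versions, annotation and strand setting are not given in the sources used here. Whole reads could be recovered for 100% of the values (within 0.1 reads), 15804709 to 26957612 per library, and precision for scarce genes is limited by counting.

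limma 3.58.1 (R 4.3.3, trend option) was fitted to log2(normalized count + 1) over 13210 rows with a mean of at least 10, with Benjamini-Hochberg adjustment over all of them and a threshold of 0.05. Fold changes are on this scale, which understates those of low genes. edgeR 4.0.16 and DESeq2 1.42.0 were run on the recovered reads as alternatives, beside pseudocounts of 0.1 and 10, no filter, a mean of at least 50, TMM and quantile scaling, the replicate block, each library left out and, chosen after seeing the data, scaling to total reads and 4-OHT replicate 1 alone. The script was tested on simulated data. The members and lists were chosen with earlier results of these data known. Named members were the 8 largest rises and falls past the threshold with groups apart, the highest per kilobase, those with a known role at a site of the ribosome and those with a head-to-head partner; other genes were Prkci, Prkcz, Mki67, Myc and up to 3 called genes of each list. Genes just outside the threshold, the processed copies, overlapping neighbours and the remaining genes were named after their values were seen. Exon lengths, overlaps and starts came from GENCODE vM21 (GRCm38) and promoters from RefSeq (GRCm38.p6). Libraries of 1 group differed by 3.49 to 6.44 times the counting variance, so none was a copy. Same-numbered libraries did not deviate together (correlations -0.01, 0.03 and -0.02).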

Additional observations from a re-analysis of the deposited data

How the results depend on the processing

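Across 17 refits, the values of 63 genes gave 1071 comparisons, of which 942 kept direction and side of the threshold, 97 lost the call, 9 gained it and 23 turned direction; the cause was not tested. All turned values belonged to members that were not called. Quantile normalization gave a median of -0.0325 for the Mrps genes and 0.0178 for Mrps30. DESeq2 called 6 Mrps genes, and 3 members higher. Scaling to total reads called 16 Mrpl genes, with 1 member higher and 26 lower and medians of -0.0977 (Mrpl) and -0.1292 (Mrps), and turned Mrpl11 (-0.0425), Mrpl22 (-0.0426), Mrpl40 (-0.0277), Mrpl44 (-0.0411) and Mrps7 (-0.0391). With 4-OHT replicate 1 alone, 1991 genes were higher and 8 members were called (4 Mrpl, 4 Mrps, 1 higher, 7 lower), the medians were -0.0654 (Mrpl) and -0.0688 (Mrps), their difference was 0.0034, and Mrpl48 (0.0555), Mrps12 (-0.0263) and Mrps18a (0.0007) turned.

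With 1 library left out, 13 to 17 members were called, 7 to 9 Mrpl and 5 to 9 Mrps, 2 to 6 higher and 10 to 14 lower, and 4946 to 5636 genes in all. The members that were higher numbered 2 without vehicle replicate 1 and 3 without vehicle replicate 2, 4-OHT replicate 2 or 4-OHT replicate 3, and the Mrps genes called numbered 6 without vehicle replicate 1 and 5 without 4-OHT replicate 3. Medians ranged from -0.0599 to 0.0288 (Mrpl) and from -0.1044 to 0.0099 (Mrps), and their difference from 0.0029 to 0.0601. The replicate block called 5637 genes and 17 members (4 higher, 13 lower) and moved no count of members by over 1.5 times; the shared numbers are not known to pair the libraries. The members that turned when a library was left out ranged from -0.0871 to 0.0291 (Mrpl10), from -0.0161 to 0.0597 (Mrpl11), from -0.0335 to 0.0925 (Mrpl22), from -0.0078 to 0.1125 (Mrpl40), from -0.0834 to 0.0046 (Mrpl45), from -0.0651 to 0.0328 (Mrpl46), from -0.0463 to 0.0158 (Mrps18a), from -0.0852 to 0.0284 (Mrps30) and from -0.0039 to 0.1036 (Mrps7). Counting limits Mrps18c, the scarcest member, most.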
